A study of Mus musculus with 12 samples.

Results

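RNA-seq of 6 mouse lymphomas, 3 Eμ-Myc/+ (Eμ-Myc below) and 3 Eμ-Myc/+; Prps2null (Prps2null below), is described here, out of 12 libraries in the series. The 6 were taken by their labels as the libraries of total RNA, and the other 6 libraries hold ribosome footprints, which entered no result. All 6 lymphomas carried the Eμ-Myc transgene, in which the immunoglobulin heavy chain enhancer drives Myc in B lineage cells, and only the Prps2null lymphomas lacked functional Prps2. By the growth protocol in the labels, frozen lymphoma stocks were thawed and 500000 live cells were given by tail vein to 8-week-old male C57BL/6 mice, which received no treatment, while the study's methods say of these libraries that the cells came from tumour-bearing mice of each genotype. B cells were then purified from lymph nodes with a magnetic isolation kit, and 10 ng of total RNA entered each library. Under that protocol the recipients had their own immune cells, so normal host B cells and other host cells that escaped the purification can be in each library. The labels call the 3 lymphomas of a genotype biological replicates without saying whether they grew from separate primary tumours. The p-values therefore measure the spread between these samples, and a difference between genotypes cannot be told apart from a difference between the stocks or tumours they came from.

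Prps2 encodes a phosphoribosyl pyrophosphate synthetase, an enzyme that turns ribose 5-phosphate into the activated sugar on which purine and pyrimidine nucleotides are built. Myc raises ribosome production and nucleotide demand together, and Eμ-Myc mice develop lymphomas whose cells range from the pre-B to the mature B stage. The p53 pathway, in which the Arf product of Cdkn2a blocks the degradation of p53, is known as the main barrier to these tumours. The comparison asks which transcripts differ in level between lymphomas that grew with and without Prps2.

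Library totals ranged from 4677391 to 6648829 counts in Eμ-Myc and from 4135908 to 5273696 in Prps2null lymphomas, so that 3 counts stood for 0.489 to 0.732 CPM (counts per 1000000 counts of the library total after median-of-ratios scaling). Eμ-Myc libraries correlated with each other at 0.971 to 0.975 (Pearson, log2 CPM across transcripts, which are not independent). Prps2null lymphomas 2 and 3 correlated at 0.978, whereas Prps2null lymphoma 1 stood apart from them, at 0.948 and 0.935, and its effect on the counts is given below. Cytoplasmic ribosomal protein transcripts took 15 to 17.1% of the counts in Eμ-Myc libraries and 2.64 to 5.92% in Prps2null libraries. This shift touches every level relative to the total, so some calls turn on the scaling. Those named below are not all of them.

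Prps2 itself stood at 68.8, 66 and 61.3 CPM in the 3 Eμ-Myc lymphomas and at 10.3, 7.51 and 8.16 CPM in the 3 Prps2null lymphomas. The groups did not overlap, and each library matched its label. The log2 fold change (Prps2null over Eμ-Myc, as in all that follow) was -2.92 with a standard error (SE) of 0.21 (adjusted p = 1.59e-07, by the quasi-likelihood test of edgeR, Benjamini-Hochberg adjusted over all transcripts tested). The counts are summed over the transcript of the gene (X:167346320-167382872, mm10 positions as in RefSeq's GRCm38.p6), so they do not show which part the remaining reads came from. Whether those reads came from lymphoma cells or from host cells was not tested.

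Of 14682 transcripts tested, 2163 (14.7%) were higher and 2712 (18.5%) were lower in Prps2null lymphomas at an adjusted p under 0.05. In 2072 (14.1%) of the higher and 2701 (18.4%) of the lower transcripts the 3 Prps2null lymphomas also lay outside the range of the 3 Eμ-Myc lymphomas. The median log2 fold change over all transcripts was 0.084. Scaling by library totals alone moved that median to 0.37 and turned the split into 3851 higher and 1668 lower. Without Eμ-Myc lymphoma 1, 2724 transcripts passed (837 higher and 1887 lower), and without Eμ-Myc lymphoma 3, 3243 passed (1079 and 2164). Without Prps2null lymphoma 1, 5258 passed (2137 and 3121).

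Gene names could be given to 2633 of the 20561 transcripts, since only the supplemental tables of the study pair transcripts with names, and those tables were built from these same libraries. One table lists transcripts higher in Prps2null lymphomas in both RNA and footprints, and it named 232 transcripts, of which 222 (95.7%) were higher here and 0 lower. The other tables list transcripts with raised translation efficiency (TE, footprints per RNA) or their 5′ leaders, and they alone named 2400 tested transcripts, of which 1931 (80.5%) were lower and 0 higher. A low RNA level in Prps2null lymphomas is itself part of a raised TE. The direction of every named gene that passed therefore follows the table that named it. The count of a gene list by direction is no independent evidence for that direction. Of the 12050 tested transcripts without a name, 1941 were higher and 781 lower, so the rises are mostly unnamed. Among the 50 largest rises that averaged 10 CPM or more and did not overlap, 22 had a name, and among the 50 largest falls 41 did.

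**Figure D1:**
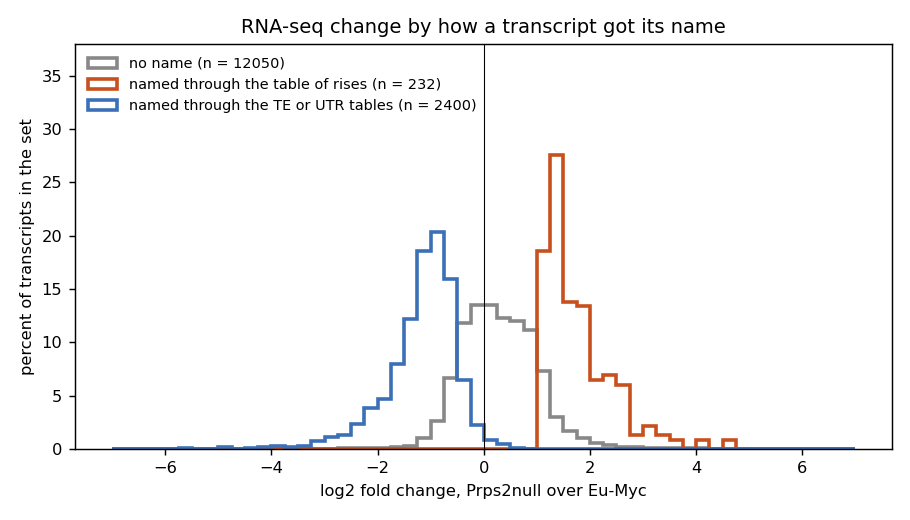
Histogram of RNA-seq log2 fold changes (Prps2null over Eμ-Myc, x axis) as a percent of each set (y axis) for transcripts without a name, those named through the table of rises and those named through the TE or UTR tables. The named sets lie on opposite sides of 0, with medians of 1.56 and -1.05, and transcripts without a name are centred at 0.25.

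The tables did not set the exact size of each change, its spread across lymphomas or which members of a family missed the threshold. They are not neutral to these either, since a larger fall in RNA raises TE more. Of the transcripts named through the TE or UTR tables, 250 fell more than 4-fold and 46 more than 8-fold, out of 296 and 66 among all tested. Of those named through the table of rises, 62 rose more than 4-fold and 14 more than 8-fold, out of 258 and 68. Of the 469 that did not pass among those named through the TE or UTR tables, 439 had a log2 fold change below 0. In bulk RNA, fewer cells of a type and less RNA per cell cannot be told apart, which holds for every level below.

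The largest fall among named genes was that of Trp53 (11:69580348-69591873), which encodes the tumour suppressor p53. It stood at 156, 131 and 123 CPM in Eμ-Myc lymphomas and at 3.2, 2.67 and 1.85 CPM in Prps2null lymphomas, from 546 to 805 and from 10 to 16 counts. All 3 Prps2null lymphomas were far below all 3 Eμ-Myc lymphomas, and the log2 fold change was -5.73 (SE 0.26, adjusted p = 2.57e-09), a 53.1-fold difference. Within 500 kb on either side, 10 other genes had a name and were tested, of 62 protein coding genes in the annotation. Their log2 fold changes lay between -1.19 and -0.41, and 6 of them passed, among them Eif4a1 at -0.99 and Kdm6b at -1.09.

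Other regulators of cell survival and lineage were among the 10 largest falls. Bcl2l1, which encodes the antiapoptotic protein Bcl-xL, stood at 280, 262 and 258 CPM in Eμ-Myc and at 7.77, 11.3 and 9.83 CPM in Prps2null lymphomas (log2 fold change -4.77, SE 0.22, adjusted p = 2.57e-09). Lef1, a transcription factor of Wnt signalling and of early lymphocytes (3:131110297-131224357), stood at 130, 112 and 121 against 3.66, 4.84 and 3.52 CPM (-4.89, SE 0.23, adjusted p = 2.57e-09). The libraries within each genotype were close for both genes, and the genotypes were far apart. Bahcc1, a chromatin protein, stood at 256, 240 and 240 against 17.8, 9.84 and 11.9 CPM (-4.23, SE 0.24, adjusted p = 1.53e-08).

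Membrane proteins and metabolic enzymes made up most of the others. Spint2, an inhibitor of serine proteases at the cell surface, stood at 65.4, 62.1 and 80.4 CPM in Eμ-Myc and at 1.83, 2.17 and 2.78 CPM in Prps2null lymphomas (-4.91, SE 0.26, adjusted p = 8.04e-09). Kcnk1, a potassium leak channel, stood at 154, 158 and 133 against 2.97, 2.5 and 9.27 CPM (-4.90, SE 0.35, adjusted p = 1.43e-07), with Prps2null lymphoma 3 above the other two of its genotype. Aldh1b1, a mitochondrial aldehyde dehydrogenase, stood at 54.7, 55.4 and 49.4 against 1.83, 1.33 and 2.41 CPM (-4.83, SE 0.27, adjusted p = 1.41e-08). The remaining falls among the 10 were those of Cbr3, a carbonyl reductase (-4.30, SE 0.26), Pllp, a proteolipid of membranes (-4.20, SE 0.32), and Col3a1, a fibrillar collagen (-4.31, SE 0.34). Col3a1 is also a fibroblast marker, and its Eμ-Myc values of 25.4, 52.6 and 44.2 CPM were the most spread of the 3.

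The largest rise among named genes was that of Golim4, a membrane protein of the Golgi (3:75876183-75956956). It stood at 3.17, 4.07 and 4.96 CPM in Eμ-Myc lymphomas and at 88.9, 89.9 and 115 CPM in Prps2null lymphomas (log2 fold change 4.58, SE 0.24, adjusted p = 8.04e-09). Foxf2, a forkhead transcription factor best known from mesenchyme, stood at 1.46, 1.95 and 2.48 against 38.4, 54.9 and 47.3 CPM (4.55, SE 0.28, adjusted p = 2.91e-08). Both genes were low in each Eμ-Myc lymphoma, and the groups did not overlap. Cdkn2a, which encodes p16 and Arf, stood at 5.37, 2.61 and 3.83 against 56.7, 71.7 and 71.8 CPM (4.12, SE 0.27, adjusted p = 4.48e-08). Counts were given for 1 transcript of the gene, so its p16 and Arf products were not told apart.

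Some of the rises were uneven between the Prps2null lymphomas. S100a6, a calcium-binding protein, stood at 10.5 CPM in Prps2null lymphoma 1 and at 52.4 and 35.6 CPM in lymphomas 2 and 3, against 1.71, 1.47 and 2.48 CPM in Eμ-Myc (4.14, SE 0.51, adjusted p = 2.20e-05). Myo18b, an unconventional myosin, went the other way, with 113 CPM in Prps2null lymphoma 1 and 51.9 and 49.9 CPM in the others, against 4.39, 4.89 and 9.46 CPM (3.52, SE 0.36, adjusted p = 3.64e-06). Even the lowest Prps2null value of each gene was above the highest Eμ-Myc value. Other rises among the 10 were even, namely those of Slc30a4, a zinc transporter (3.37, SE 0.31), and Cdk5rap2, a centrosome protein (3.12, SE 0.27), with Kcns1, a potassium channel subunit (3.42, SE 0.36), somewhat lower in Prps2null lymphoma 1. Ms4a1, also among the 10, is described with the B cell genes. By the same limits on level, test and overlap, 0 genes named through the TE or UTR tables alone rose, and 0 of them passed as higher at all.

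**Figure D2:**
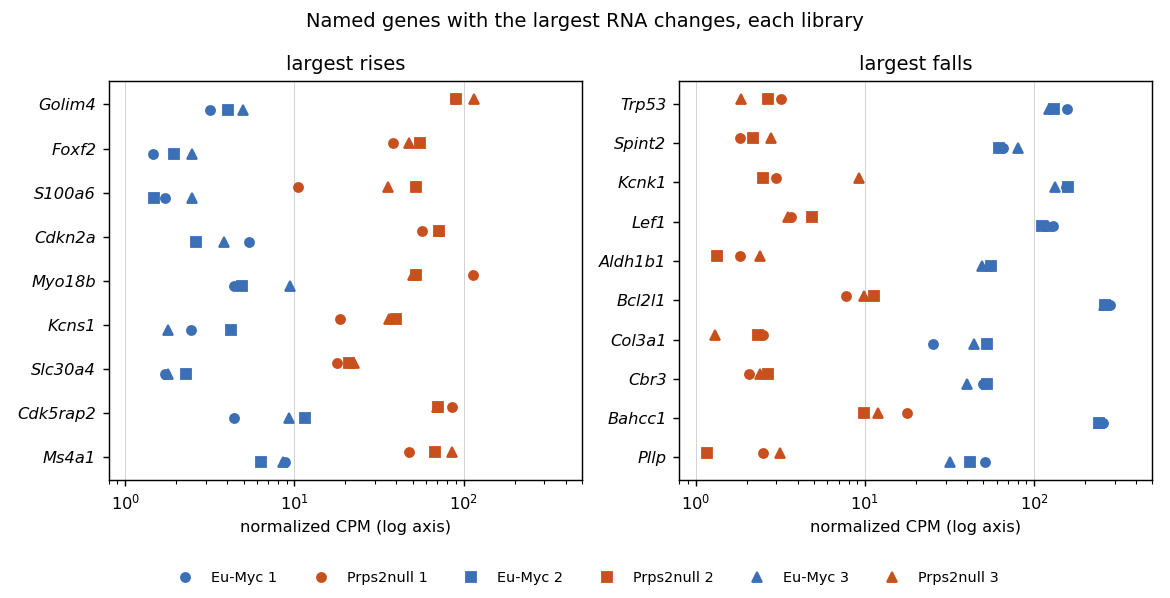
Normalized CPM (log axis) in each of the 6 libraries for 9 of the 10 named genes with the largest rises and the 10 with the largest falls, ordered from the top by size. Circles, squares and triangles mark lymphomas 1, 2 and 3 of each genotype; in each of the 19 genes the 3 Prps2null points lie on 1 side of all 3 Eμ-Myc points.

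Of 16 p53 pathway genes tested, 14 fell, 1 rose and 1 did not pass, with a median log2 fold change of -1.33. By table, 15 of the 16 were named through the TE or UTR tables, so the 14 falls read against the 80.5% there and not against the 18.5% of all transcripts. The pathway has sensors and regulators, targets that stop growth and targets that kill the cell. Among regulators, Cdkn2a rose and Trp53 fell as above, and Ppp1r13b and Trp53bp2, which encode the ASPP partners that steer p53 to death genes, fell by 2.01 (SE 0.22) and 1.34 (SE 0.21) on the log2 scale.

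The death genes that p53 is known to turn on fell by unequal amounts. Bbc3, which encodes Puma, stood at 35.6, 40.2 and 39.2 CPM in Eμ-Myc and at 5.48, 6.34 and 5.56 CPM in Prps2null lymphomas (-2.72, SE 0.23, adjusted p = 5.15e-07). Pmaip1, which encodes Noxa, stood at 31.5, 39.1 and 45.3 against 17.1, 22.5 and 16.1 CPM (-1.05, SE 0.22, adjusted p = 0.00206). Bax stood at 23.4, 28 and 37 against 14.9, 15.7 and 23.2 CPM (-0.72, SE 0.24, adjusted p = 0.0333). The genotypes were separate in each, by a wide margin for Bbc3 and by a narrow one for Bax, which lost its call in 6 of 13 alternatives, among them library totals and those without Eμ-Myc lymphoma 2 or 3 or Prps2null lymphoma 2 (from adjusted p = 0.0062 to adjusted p = 0.182 over the 13). Bak1, the other effector of mitochondrial death, stood at 46.1, 35.3 and 41 against 24.9, 33.9 and 37.8 CPM and did not pass (-0.33, SE 0.21, adjusted p = 0.225).

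Other members of the list were Trp53inp1 (-1.87, SE 0.20), a stress protein, and Bcl2l11 (-1.47, SE 0.18), which encodes the death protein Bim. Fdxr, Ccng1, Rps27l and Siva1, which p53 also regulates, fell by 1.04 to 1.32 on the log2 scale. The list holds genes of opposite action, since Bcl2l1 opposes the death that Bbc3, Pmaip1, Bax and Bcl2l11 promote, and all of these fell. Mdm2 and Cdkn1a, the targets most often used to read p53 activity, had no name in the tables and were not analysed here.

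Of 20 nucleotide synthesis genes tested, Prps2 included, 18 fell, 1 rose and 1 did not pass, with a median of -1.27 (17 fell without Prps2null lymphoma 1). All but Dnph1 were named through the TE or UTR tables, where 80.5% fell. In purine synthesis, Impdh2 and Impdh1, the enzymes that commit IMP to guanine nucleotides, fell together. Impdh2 stood at 664, 612 and 534 CPM in Eμ-Myc and at 136, 183 and 183 CPM in Prps2null lymphomas (-1.85, SE 0.21, adjusted p = 1.20e-05). Impdh1 stood at 72.5, 64.5 and 64.2 against 12.8, 23.2 and 24.1 CPM (-1.73, SE 0.23, adjusted p = 4.55e-05). Gart (-1.51, SE 0.22), Paics (-1.38, SE 0.19) and Atic (-0.76, SE 0.20), which carry out successive steps of the purine ring, also fell. The first enzyme of that ring, Ppat, had no name here.

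In pyrimidine synthesis, Umps, which makes UMP, stood at 201, 205 and 202 CPM in Eμ-Myc and at 43.6, 66.6 and 60.6 CPM in Prps2null lymphomas (-1.83, SE 0.20, adjusted p = 7.81e-06). Ctps2, which makes CTP from UTP, stood at 45.6, 51 and 47.5 against 8.68, 13.3 and 11.7 CPM (-2.08, SE 0.22, adjusted p = 4.58e-06). After Prps2, Ctps2 showed the largest fall of the list. Nucleotide kinases fell less, with Nme2 at -1.32 (SE 0.26), Ak3 at -1.22 (SE 0.19) and Ak6 at -0.73 (SE 0.22), and Adssl1 and Nme4 were low, at under 11 CPM in every library.

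Among enzymes that break down or clean up nucleotides, Dctpp1, a dCTP pyrophosphatase, fell by 1.17 on the log2 scale. Nt5c3, a pyrimidine nucleotidase, stood at 23.7, 22.3 and 19.6 CPM in Eμ-Myc and at 10.5, 14.5 and 18.9 CPM in Prps2null lymphomas and did not pass (-0.57, SE 0.25, adjusted p = 0.0851). Nt5c (-0.57, SE 0.20, adjusted p = 0.0389) and Dut, the dUTPase (-0.72, SE 0.21, adjusted p = 0.015), passed. The rise was that of Dnph1, which cleaves deoxynucleotide monophosphates, at 4.39, 8.31 and 6.99 against 23.1, 15.8 and 16.1 CPM (1.45, SE 0.30, adjusted p = 0.00169), and it was named through the table of rises. The calls near the threshold depended on single libraries. Without Eμ-Myc lymphoma 1, Atic, Ak6, Dut, Nt5c and Dguok did not pass, without Eμ-Myc lymphoma 3 neither did Dut, Nt5c and Dguok, and without Prps2null lymphoma 2 neither did Ak6, Nt5c, Dguok and Nme4. With library totals, Atic, Ak6, Dut, Nt5c, Nt5c3b and Dguok did not pass. Dguok also failed without each of the other 3 lymphomas, so that its call held only with all 6, and Nt5c3 passed without Prps2null lymphoma 3.

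**Figure D3:**
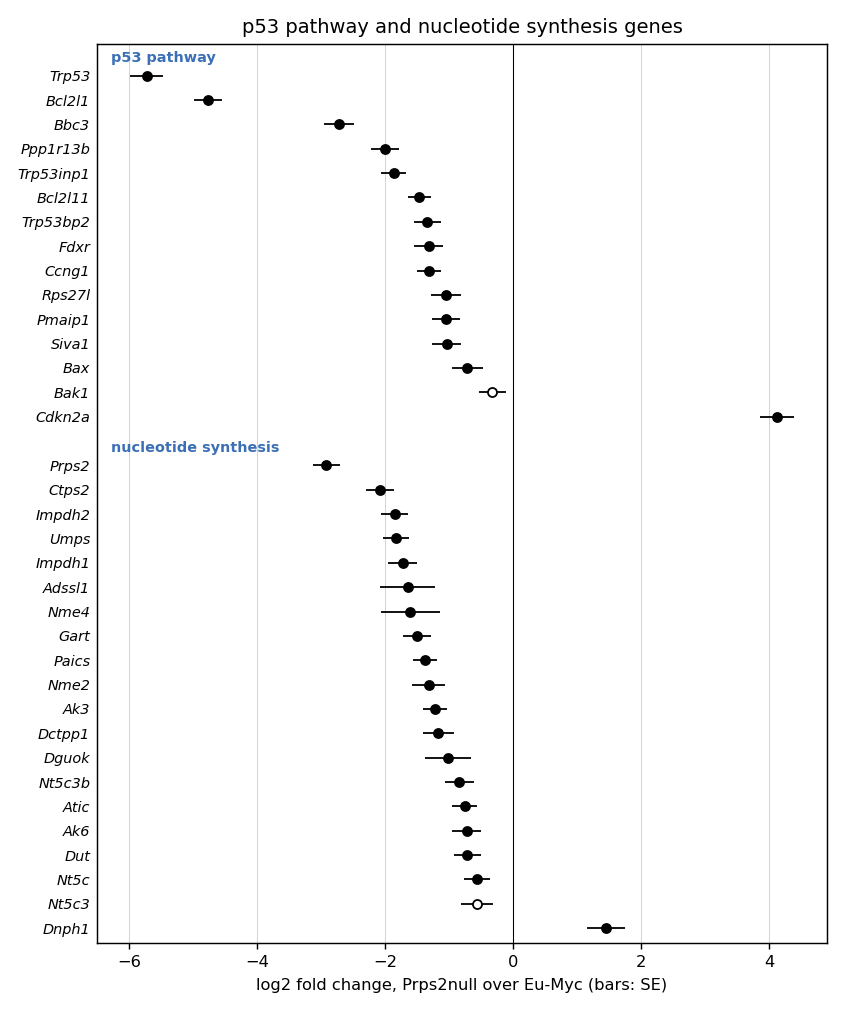
Log2 fold change (Prps2null over Eμ-Myc, x axis) with its SE for the tested members of the p53 pathway (15 of 16 drawn) and of nucleotide synthesis (20), 3 libraries per genotype. Filled points passed an adjusted p under 0.05 and open points did not; Trp53 and Cdkn2a lie at the opposite ends, at -5.73 and 4.12.

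MHC class II molecules, which B cells use to show peptides to helper T cells, gave the lowest median of any list. Of 8 members tested, 8 fell, with a median of -2.31 beside 0.084 over all transcripts and -1.05 over those named through the TE or UTR tables, which named all 8. H2-Eb1 stood at 347, 283 and 255 CPM in Eμ-Myc and at 20.1, 45.7 and 33.6 CPM in Prps2null lymphomas (-3.15, SE 0.27, adjusted p = 6.49e-07). H2-Aa and H2-Ab1, the chains of I-A, fell by 3.04 (SE 0.32) and 2.55 (SE 0.26) on the log2 scale. Cd74, the invariant chain that escorts class II molecules, stood at 2500, 1880 and 1600 against 151, 352 and 337 CPM (-2.83, SE 0.32, adjusted p = 1.00e-05).

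The peptide editors of the DM type and the regulator Ciita fell less. H2-DMa, H2-DMb1 and H2-DMb2 had log2 fold changes of -2.06 (SE 0.25), -1.68 (SE 0.27) and -1.25 (SE 0.21). Ciita, the coactivator that switches class II genes on, stood at 167, 163 and 147 CPM in Eμ-Myc and at 53.5, 57.1 and 50.3 CPM in Prps2null lymphomas (-1.57, SE 0.18, adjusted p = 1.20e-05). In both I-A chains, H2-Eb1 and Cd74 the Prps2null lymphoma 1 was the lowest library and Eμ-Myc lymphoma 1 the highest, whereas Ciita was even within each genotype. H2-DMb1 and H2-DMb2 are near copies of each other, so reads may have been split between them.

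Class II promoters are known to share a Y box, the CCAAT element that NF-Y binds, and the fall of these genes together is why the stretches around it are shown. RefSeq promoters of GRCm38.p6 (from 250 bases before the start site to 50 after it) were searched for TGATTGG, the CCAAT box read on the other strand with flanking bases, on both strands. H2-Aa, H2-Eb1, H2-DMb1 and H2-DMb2 held it on the strand of the gene, with its first base 50, 61, 63 and 92 bases before the start site, while neither of the 2 promoters of H2-DMa held these letters. It was found in 7.82% of all 32851 promoters, and the shorter ATTGG, which lies within it, in 37.4%, among them 1 of the 2 of H2-DMa. H2-Oa and H2-Ob, class II genes whose RNA had no name here, held the longer motif as well, 45 and 59 bases before the start site. Promoters of H2-Ab1, Cd74 and Ciita are not shown here. The motif was chosen with the sequences in view, and a match describes the letters only. The stretches of 80 bases follow, 5′ to 3′ on the strand of the gene, with the Y box in capitals.
H2-Aa (17:34287854-34287933, minus strand): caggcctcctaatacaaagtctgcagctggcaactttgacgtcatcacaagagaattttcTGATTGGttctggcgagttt
H2-Eb1 (17:34305746-34305825, plus strand): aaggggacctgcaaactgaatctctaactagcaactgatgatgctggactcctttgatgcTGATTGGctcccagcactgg
H2-DMb1 (17:34153068-34153147, plus strand): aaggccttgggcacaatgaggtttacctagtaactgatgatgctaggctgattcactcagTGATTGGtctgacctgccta
H2-DMb2 (17:34145097-34145176, plus strand): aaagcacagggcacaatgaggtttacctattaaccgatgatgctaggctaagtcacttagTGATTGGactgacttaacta

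Among MHC class I genes, 10 of 11 tested fell and 0 rose, with a median of -1.14, all named through the TE or UTR tables, where 80.5% fell. B2m, the light chain of class I molecules, stood at 409, 375 and 382 CPM in Eμ-Myc and at 52.5, 95.4 and 93.5 CPM in Prps2null lymphomas (-2.27, SE 0.24, adjusted p = 4.66e-06). Erap1, which trims peptides, fell by 1.63 (SE 0.18), and Psmb8, an immunoproteasome subunit, by 1.40 (SE 0.30). Calr, a chaperone of class I loading, did not pass (-0.48) except without Prps2null lymphoma 3.

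B cell receptor genes split. Of 15 tested, 11 fell, 3 rose and 1 did not pass, with a median of -1.03, and the 3 that rose were the 3 named through the table of rises. Ms4a1, which encodes CD20, stood at 8.79, 6.35 and 8.56 CPM in Eμ-Myc and at 47.5, 68.1 and 84.9 CPM in Prps2null lymphomas (3.09, SE 0.26, adjusted p = 5.15e-07). Bank1, a scaffold of B cell receptor signalling, stood at 17.3, 16 and 6.76 against 73.6, 108 and 131 CPM (2.95, SE 0.30, adjusted p = 3.70e-06). Both rose in each Prps2null lymphoma, least in lymphoma 1. Pik3cb, a catalytic subunit of PI3 kinase, rose by 1.56 (SE 0.41) from under 4 CPM.

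The core of the receptor and its kinases moved down. Cd79a, the signalling chain of the receptor, stood at 542, 427 and 400 CPM in Eμ-Myc and at 111, 221 and 237 CPM in Prps2null lymphomas (-1.26, SE 0.26, adjusted p = 0.002). Syk, the kinase recruited to that chain, stood at 553, 489 and 380 against 159, 180 and 152 CPM (-1.53, SE 0.21, adjusted p = 5.75e-05). Both were present in every library, and both were separate between genotypes. Downstream, the adaptor Blnk fell by 1.04 (SE 0.26), Prkcd, a protein kinase C, by 1.35 (SE 0.20) and Btk by 0.72 (SE 0.22). Surface partners of the receptor, Cd81 (-1.13), Cd72 (-1.08) and Cd84 (-1.57), fell too, as did Dok3, Fcrla and Nedd4l, by 0.83 to 1.03. Btk and Fcrla lost their calls without Eμ-Myc lymphoma 1 and with library totals (over the alternatives, up to adjusted p = 0.145 and adjusted p = 0.0772). Fcmr, the Fc receptor for IgM, was low in all libraries and did not pass (-0.35, SE 0.39).

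Of 22 genes that mark stages of B cell development, 18 fell and 4 rose, with a median of -1.57. The 18 were named through the TE or UTR tables, whose genes had a median of -1.05, and the 4 through the table of rises. Rag2, Dntt, Vpreb1, Igll1, Il7r and Erg, genes of early B cells in the list, had no name and were not analysed here. Beside Lef1, Bst1, a surface enzyme of pro-B and pre-B cells, stood at 59.5, 49 and 36.5 CPM in Eμ-Myc and at 8.68, 4.67 and 3.71 CPM in Prps2null lymphomas (-3.11, SE 0.30, adjusted p = 2.02e-06). Prom1, a surface protein of progenitors, stood at 42.2, 38.4 and 46.4 against 7.31, 4.34 and 4.08 CPM (-3.03, SE 0.26, adjusted p = 6.12e-07). Mzb1, a chaperone of immunoglobulin assembly, stood at 240, 184 and 211 against 17.6, 28.9 and 31.2 CPM (-3.02, SE 0.23, adjusted p = 2.74e-07). In each of these the lowest Eμ-Myc lymphoma was more than 4-fold above the highest Prps2null lymphoma.

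Members of the list outside the largest falls were chosen for mention after their values were seen. Rag1, a subunit of the recombinase that joins receptor gene segments, stood at 133, 95.9 and 56.6 CPM in Eμ-Myc and at 16.4, 13.3 and 10 CPM in Prps2null lymphomas (-2.85, SE 0.29, adjusted p = 3.91e-06). Genes of later stages fell as well, among them Irf4 (-1.67), a regulator of plasma cell fate, Ccr7 (-1.68), a receptor for entry into lymph nodes, and Bach2 (-0.86). The 4 that rose were Arid3a (1.80, SE 0.21), Mef2c (1.37, SE 0.18), Enpep (1.38, SE 0.51) and Il21r (1.12, SE 0.28), all named through the table of rises. Mef2c, a transcription factor of B cells, stood at 23.4, 22.2 and 21.6 against 56.9, 61.7 and 54.7 CPM and was the most even of them. Enpep, an aminopeptidase of pre-B cells, was at 16.2 CPM in Prps2null lymphoma 1 and at 4.34 and 4.64 CPM in the others, against 2.7 to 3.75 CPM in Eμ-Myc, and without Prps2null lymphoma 1 or any single Eμ-Myc lymphoma it did not pass (from adjusted p = 0.0131 to adjusted p = 0.452 over the alternatives). Il21r did not pass without Eμ-Myc lymphoma 1.

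**Figure D4:**
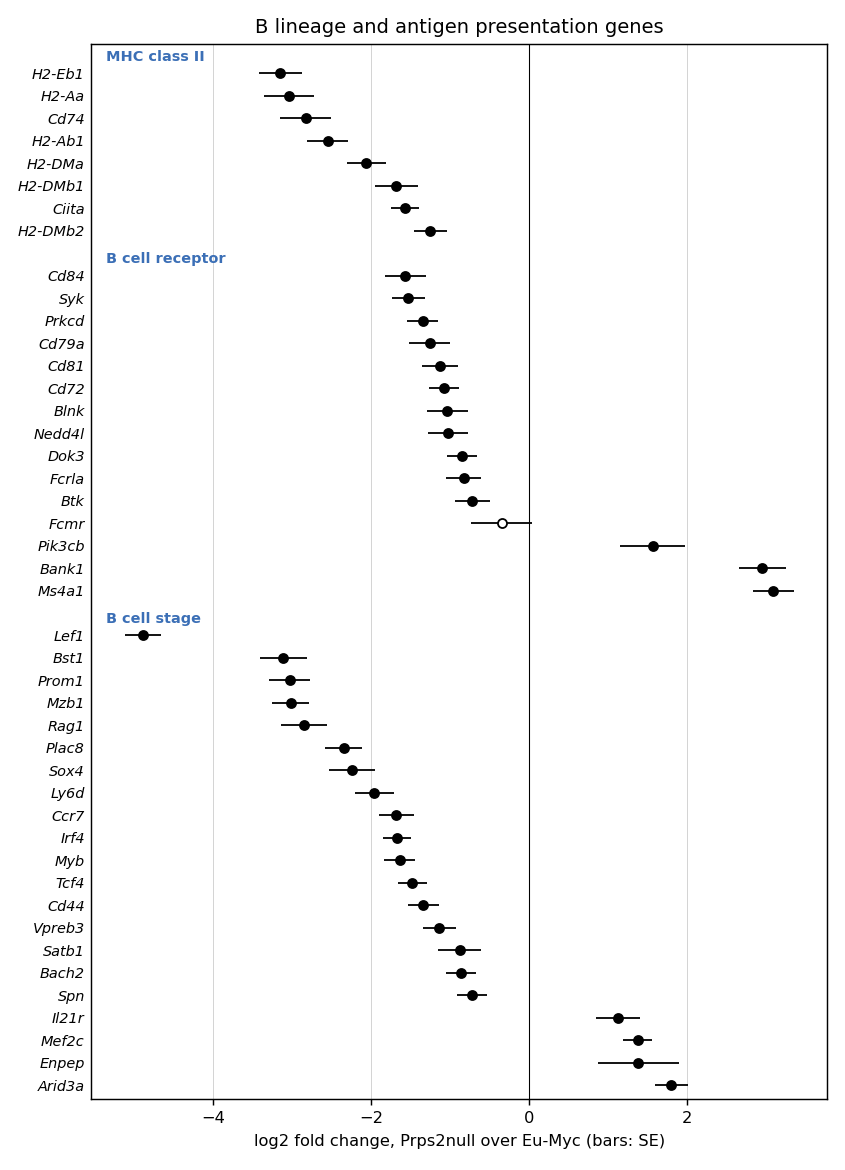
Log2 fold change (Prps2null over Eμ-Myc, x axis) with its SE for the tested members of the MHC class II, B cell receptor and B cell stage lists (21 of the 22 drawn in the last), 3 libraries per genotype. Filled points passed an adjusted p under 0.05 and the open point (Fcmr) did not; all 8 class II genes lie below -1, while Ms4a1 and Bank1 lie near 3.

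Markers of the cell types the samples could hold were read beside these genes. The 10 named B cell markers summed to 4240, 3230 and 2810 CPM in Eμ-Myc and to 575, 1050 and 1080 CPM in Prps2null lymphomas, and Cd74 made up most of the sum in Eμ-Myc lymphomas but not in Prps2null lymphomas. Of 15 macrophage markers tested, 4 fell and 2 rose, and their sum was 195 to 250 CPM in Eμ-Myc and 163 to 261 CPM in Prps2null lymphomas, which overlap. Of these markers 13 were named through the TE or UTR tables, where 80.5% fell, and the 2 that rose through the table of rises. Of the macrophage falls, C1qc did not pass without Eμ-Myc lymphoma 1 or 3 or Prps2null lymphoma 2 or 3, nor Lyz2 without Eμ-Myc lymphoma 2 or 3 or Prps2null lymphoma 3, while Itgad passed without any 1 library. The 3 T and NK cell markers with a name summed to 64.8 to 78.3 against 27 to 33.4 CPM, of which Lck and Grap2 fell. The 11 fibroblast markers summed to 95.4 to 166 against 50.8 to 83.2 CPM, with only the collagens Col1a1, Col1a2 and Col3a1 passing. The 6 endothelial markers summed to 212 to 314 against 197 to 287 CPM, of which Calcrl rose and Plxnd1 fell. All 3 T and NK cell markers, all 11 fibroblast markers and 5 of the 6 endothelial markers were named through the TE or UTR tables. Their falls read against the 80.5% there. No named marker was at 0 counts in any library, and defining markers such as Cd3e, C1qa and Pecam1 had no name and were not analysed here. The part of host cells in the changes above was not tested.

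Most genes of energy metabolism fell, with sizes near those of other genes named through the TE or UTR tables. Of all genes so named, 80.5% fell. Of 53 transcripts of the respiratory chain, 49 fell (35 with library totals) and 0 rose, with a median of -1.15. Cox7a2l stood at 266, 243 and 259 CPM in Eμ-Myc and at 28.6, 37.9 and 45.4 CPM in Prps2null lymphomas (-2.77, SE 0.21, adjusted p = 2.66e-07), the largest fall of the list. All 13 genes of the TCA cycle fell (9 passed with library totals), with a median of -1.05. Idh2, the mitochondrial isocitrate dehydrogenase, stood out at 172, 151 and 139 against 6.63, 18.4 and 6.31 CPM (-3.86, SE 0.33, adjusted p = 6.12e-07), whereas the next, Sdha, fell by 1.67 (SE 0.21).

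In sugar metabolism 9 of 10 glycolysis genes fell, with a median of -0.99. Pfkp, the platelet type of phosphofructokinase, stood at 119, 103 and 99.4 CPM in Eμ-Myc and at 20.1, 25 and 21.9 CPM in Prps2null lymphomas (-2.26, SE 0.19, adjusted p = 6.12e-07), while Pfkl, the liver type, fell by 1.15 (SE 0.20). Pklr, the liver and red cell pyruvate kinase, rose from 1.46 to 3.42 CPM in Eμ-Myc to 5.17 to 8.91 CPM in Prps2null lymphomas (1.30, SE 0.46, adjusted p = 0.0398). It did not pass without either Eμ-Myc lymphoma 1 or 3 or Prps2null lymphoma 1 or 2. In the pentose phosphate pathway, which feeds ribose 5-phosphate to the synthetase lost here, 4 of 5 genes fell, with a median of -1.05. Taldo1 (-1.20, SE 0.21), Rpia (-1.18, SE 0.21), Pgls (-1.05, SE 0.20) and Tkt (-0.93, SE 0.25) passed, Tkt not without Eμ-Myc lymphoma 1 nor with library totals, and Pgd did not pass (-0.49) except without Prps2null lymphoma 1. Of 9 serine, glycine and folate genes, 7 fell (8 without Prps2null lymphoma 1), led by Shmt1 (-1.25, SE 0.18) and Mthfd2 (-1.17, SE 0.19), and Srr, serine racemase, was at 0.032.

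Most genes of protein synthesis and folding, cytoplasmic ribosomal proteins apart, also fell. Of 28 translation factors, 27 fell (20 with library totals) and 0 rose, with a median of -1.16. Eef2, the factor that moves the ribosome along the message, stood at 9860, 8000 and 8440 CPM in Eμ-Myc and at 1360, 1730 and 1930 CPM in Prps2null lymphomas (-2.39, SE 0.28, adjusted p = 1.54e-05). Eif4a2 fell by 2.21 (SE 0.23) and its close relative Eif4a1 by 0.99 (SE 0.24). All 28 chaperones fell (median -1.26), with Hspa8, the constitutive Hsp70, at 5340, 4940 and 4920 against 911, 1180 and 1210 CPM (-2.20, SE 0.26, adjusted p = 1.44e-05). Of 32 mitochondrial ribosome transcripts 25 fell (median -0.94, 17 with library totals), of 18 proteasome transcripts 15 fell (median -0.92), and 0 rose in either. The proteasome count was 8 without Eμ-Myc lymphoma 1 and 7 with library totals. All were named through the TE or UTR tables, where 80.5% fell, and the mitochondrial ribosome and proteasome counts were near that share.

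All 50 histone transcripts fell, with a median of -1.35, and they were the list in which Prps2null lymphoma 1 differed most from the others of its genotype. The median deviation from the Eμ-Myc mean, on the log2 scale of CPM, was -2.18 in Prps2null lymphoma 1 and -1.08 and -0.98 in lymphomas 2 and 3. Hist1h4a, an H4 gene, stood at 299, 314 and 299 CPM in Eμ-Myc and at 43.9, 89.1 and 97.2 CPM in Prps2null lymphomas (-1.98, SE 0.25, adjusted p = 3.41e-05). The copies within each histone family are nearly identical, so their counts are uncertain and are not independent of each other. Without Prps2null lymphoma 1 all 50 still fell, with a median of -1.05. Of 16 DNA replication genes 13 fell, with a median of -0.86, led by Rfc4 (-1.56, SE 0.22), a clamp loader, and Pcna (-1.24, SE 0.20), the clamp, and 3 did not pass (Mcm10, Ung and Rnaseh2c). With library totals 7 passed. All 16 were named through the TE or UTR tables, where 80.5% fell, which is near the share seen here.

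Most secretory and lysosomal genes tested fell, with exceptions, as did 80.5% of all genes named through the TE or UTR tables. Of 31 genes of folding and secretion in the endoplasmic reticulum, 26 fell and 1 rose, with a median of -1.04. Derl3, a component of the degradation of misfolded proteins, stood at 22.9, 22.5 and 32.2 CPM in Eμ-Myc and at 4.11, 4.34 and 4.08 CPM in Prps2null lymphomas (-2.62, SE 0.27, adjusted p = 4.16e-06). The rise was that of Fkbp11 (1.33, SE 0.45), which overlapped between genotypes and did not pass without Eμ-Myc lymphoma 1 or 2 or Prps2null lymphoma 2 or 3. Of 36 lysosome genes, 25 fell (16 with library totals), 3 rose and 8 did not pass, with a median of -0.80. Lgmn, a lysosomal protease, fell by 1.87 (SE 0.26), Grn, progranulin, by 1.85 (SE 0.21), and Hexa, a hexosaminidase, by 1.83 (SE 0.22). The 3 that rose were Atp6v0a1 (2.31), a proton pump subunit whose partner Atp6v0b fell by 1.63, Mfsd8 (1.71), a lysosomal membrane protein, and Arsb (1.48), a sulfatase. Mfsd8 did not pass without Eμ-Myc lymphoma 1 or 2 or Prps2null lymphoma 2.

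Structural genes were the most divided of the lists. Of 45 transcripts of the actin cytoskeleton and adhesion, 17 rose, 21 fell and 7 did not pass, with a median of -0.50, and the 17 were the 17 named through the table of rises. Pfn2, a profilin, stood at 2.2, 3.09 and 2.7 CPM in Eμ-Myc and at 18.5, 13.7 and 19.8 CPM in Prps2null lymphomas (2.67, SE 0.32, adjusted p = 1.82e-05). Itgb7, the integrin chain of gut-homing lymphocytes, stood at 6.83, 4.07 and 3.15 against 22.2, 30 and 24.5 CPM (2.46, SE 0.30, adjusted p = 1.82e-05). Tjp1, a tight junction scaffold, also rose, at 1.56, as did the junction protein Afdn at 2.41. Tjp1 did not pass without Eμ-Myc lymphoma 1 or 3 or Prps2null lymphoma 1. Among the falls, Svil, a villin-like protein, stood at 323, 276 and 280 against 35.4, 38.2 and 42.3 CPM (-2.92, SE 0.20, adjusted p = 7.54e-08), and Ctnna1, the catenin that ties cadherins to actin, fell by 2.99 (SE 0.39). Of this list, 13 genes fell without Eμ-Myc lymphoma 1 and 12 with library totals.

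Of the lists other than cell type markers, matrix genes had the smallest share that passed. Of 34 tested, 5 rose, 6 fell and 23 did not pass, with a median of -0.17 that turned to 0.086 with library totals. Reln, a secreted glycoprotein of neuronal migration, stood at 55.2, 56.8 and 72.6 CPM in Eμ-Myc and at 321, 385 and 388 CPM in Prps2null lymphomas (2.57, SE 0.21, adjusted p = 3.90e-07). Lamc1, a laminin chain, stood at 3.42, 4.72 and 5.18 against 17.8, 21.2 and 13.9 CPM (1.98, SE 0.30, adjusted p = 1.49e-04). The others that rose were Papln, Ltbp1 and Mmp14 (1.23 to 1.76), of which Ltbp1 and Mmp14 did not pass without Eμ-Myc lymphoma 1, nor Ltbp1 without Eμ-Myc lymphoma 2 or 3 or Prps2null lymphoma 1. The fibrillar collagens Col1a1, Col1a2 and Col3a1 fell, but Col5a1, Col4a1 and Col6a3 did not pass, at -0.0022, -0.014 and 0.43. The list median in Prps2null lymphoma 1 was 0.32 above the Eμ-Myc mean, against -0.30 and -0.48 in lymphomas 2 and 3.

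Signalling and immune lists held members of both directions. Of 20 Notch and Wnt genes, 14 fell, 1 rose and 5 did not pass, with a median of -1.19. The 1 that rose was named through the table of rises and the other 19 through the TE or UTR tables, where 80.5% fell. Lrp5, a Wnt coreceptor, stood at 51.5, 54.9 and 57.5 CPM in Eμ-Myc and at 3.66, 3.34 and 2.23 CPM in Prps2null lymphomas (-4.15, SE 0.25, adjusted p = 2.65e-08). Notch1 fell by 2.03 (SE 0.22) and Celsr1, a cadherin of planar polarity, by 3.14 (SE 0.38), while the Notch target Hes1 did not pass (-0.56). The rise was that of the Wnt receptor Fzd7, at 4.39, 4.23 and 4.73 against 13.7, 9.68 and 10.2 CPM (1.32, SE 0.32, adjusted p = 0.00608).

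Of 28 interferon and innate immune genes, 20 fell and 6 rose, with a median of -1.21. The 6 were those named through the table of rises, and the other 22 were named through the TE or UTR tables, where 80.5% fell. Samd9l, an antiviral protein, stood at 12.9, 13.4 and 17.4 CPM in Eμ-Myc and at 66.9, 79.2 and 104 CPM in Prps2null lymphomas (2.52, SE 0.22, adjusted p = 9.81e-07). Themis2, a signalling protein of B cells and macrophages, rose by 2.01 (SE 0.26). Lgals9, a galectin, stood at 193, 188 and 192 against 31.8, 46.2 and 46.6 CPM (-2.20, SE 0.20, adjusted p = 1.34e-06), and Nrros, which limits reactive oxygen, fell by 1.97 (SE 0.19). The adaptors Mavs (-1.77) and Myd88 (-1.31) and the receptor chain Ifnar2 (-1.34) fell too. Of 13 clock and immediate early genes 8 fell and 1 rose (Gem, a small GTPase, at 2.58), with a median of -0.98. Gem was named through the table of rises and the other 12 through the TE or UTR tables, so the 8 falls read against the 80.5% there. Nr4a2 fell by 2.27 (SE 0.33) and Dbp by 1.60 (SE 0.23), whereas Fos was at 0.45 and Egr1 at -0.97 and neither passed. Fos did pass without Eμ-Myc lymphoma 3, and Egr1 without Eμ-Myc lymphoma 1 or 2 or Prps2null lymphoma 1.

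Genes that encode very large proteins gave 31 falls (21 with library totals) and 5 rises among 42 tested, with a median of -0.80. The 5 were those named through the table of rises, and the other 37 were named through the TE or UTR tables, where 80.5% fell. Dnah8, an axonemal dynein, stood at 807, 810 and 953 CPM in Eμ-Myc and at 138, 105 and 89.8 CPM in Prps2null lymphomas (-2.95, SE 0.23, adjusted p = 3.39e-07), and the related Dnah17 rose by 1.50. Igf2r, a sorting receptor for lysosomal enzymes, fell by 2.06 (SE 0.20), while Fry, a cytoskeletal scaffold, rose by 1.86 (SE 0.20). Families with a shared symbol were formed after the values were seen. Of 39 solute carriers outside the transporters drawn in the study, 22 fell, 3 rose and 14 did not pass (median -0.86, from -3.06 for Slc43a1, an amino acid transporter, to 3.37 for Slc30a4). Of 54 Zfp zinc finger genes 34 fell, 5 rose and 15 did not pass (median -0.85). Of 5 potassium channel genes 3 fell and 2 rose. Of all 2632 named transcripts tested, 1931 fell and 222 rose, with a median of -0.99, and the counts of these families read against that split, which the naming set.

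Across the 25 lists other than cell type markers, the median log2 fold change was below 0 in all 25 and below the -1.05 of the genes named through the TE or UTR tables in 13. In 24 of the 25 the median of each Prps2null lymphoma lay below that of each Eμ-Myc lymphoma, matrix being the exception. Most members of every list were named through the TE or UTR tables, where 80.5% fell and 0 rose. The direction of these medians therefore follows from the naming and is no independent evidence. Prps2null lymphoma 1 had the lowest median in 23, and in the p53 pathway and matrix lists lymphoma 3 had it. Over the genes named through those tables its median deviation was -1.34, against -0.96 and -0.89 in lymphomas 2 and 3. The p53 pathway stood at -1.37, -1.33 and -1.38, the B cell stage list at -1.55, -1.53 and -1.49 and matrix at 0.32, -0.30 and -0.48. In the first pair of these lists the 3 Prps2null lymphomas were nearly level, while in the respiratory chain they were at -1.82, -0.92 and -0.90. Without Prps2null lymphoma 1 the number of members higher or lower changed in 12 of the 25 lists, by at most 3 genes in either direction.

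**Figure D5:**
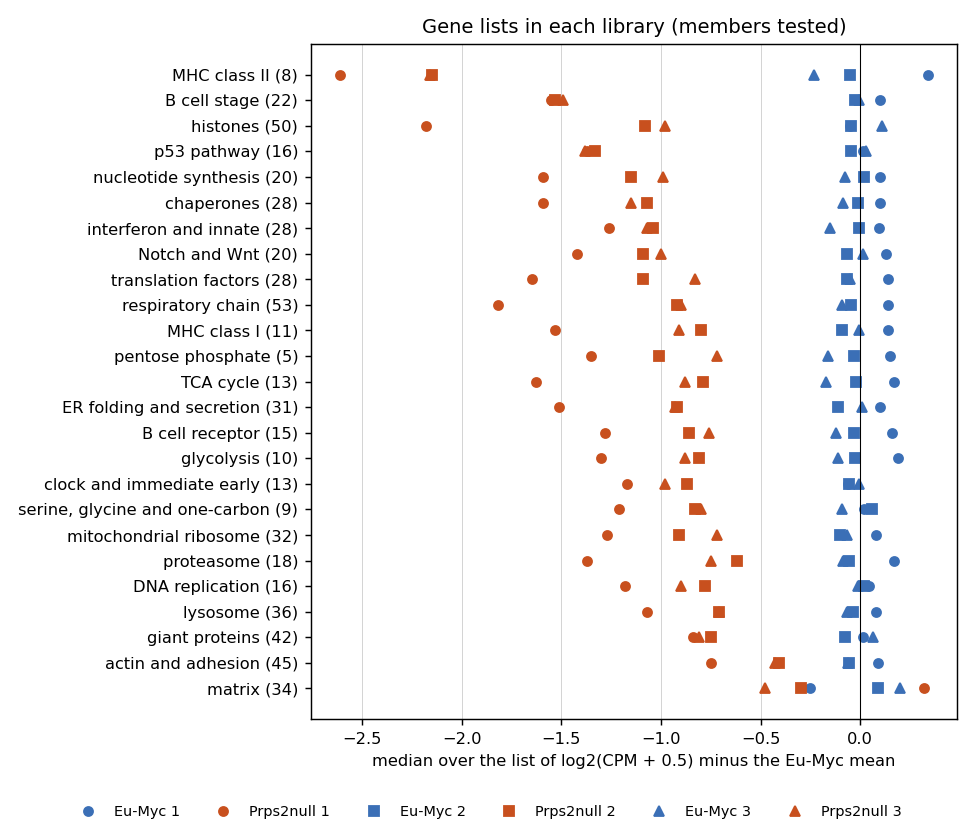
Median over each gene list of log2(CPM + 0.5) minus its Eμ-Myc mean (x axis) in each of the 6 libraries, with the number of members tested in brackets. Blue marks Eμ-Myc and orange Prps2null lymphomas. The Prps2null lymphomas lie to the left in 24 of 25 lists, and Prps2null lymphoma 1 (orange circle) lies furthest left in 23. Most members of every list were named through the TE or UTR tables, so the direction follows from the naming.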

How the data were processed

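RNA-seq counts per transcript for 3 Eμ-Myc and 3 Prps2null lymphomas were used. The authors deposited them as whole counts, not normalized, on the isoform with the longest coding sequence of each gene. The submitters' processing notes name cutadapt 2.3, Bowtie2 2.3.5 and mm10. The footprint values, which the authors deposited as whole or fractional values, that is, expected counts, after correcting for stalled ribosomes, entered no result.

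Samples were grouped by their labels. Counts were tested with edgeR 4.0.16 (limma 3.58.1, R 4.3.3), by the quasi-likelihood test, after its default filter on low counts and median-of-ratios scaling over the transcripts kept, with Benjamini-Hochberg adjustment and a threshold of 0.05. The SE was obtained from the F statistic, as the fold change (log2) divided by its root. On simulated counts with 100 transcripts changed 2-fold and 100 changed 4-fold (14279 tested), 57% and 100% were recovered. The changed transcripts were drawn from those with higher counts, with a common dispersion of 0.047 and equal numbers of rises and falls. Recovery at low counts, or under the shift in ribosomal protein share, was not tested. Detection floors of 3 counts cover counting error only. Alternatives were other scalings, filters, DESeq2 1.42.0, a replicate block and leaving out each lymphoma.

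The members and gene lists were chosen with earlier results of these data known. Genes named are Prps2; the 10 largest rises and falls that passed, averaged 10 CPM or more and did not overlap, without cytoplasmic ribosomal proteins, the drawn transporters and predicted gene models; up to 4 per list by size; every member of the p53, nucleotide, class II, receptor and marker lists; and others as said. Near-identical copies (19 symbols name more than 1 transcript) are uncertain. The deposited table holds no comparison of the authors' own. Some genes that the rule picks are not reported here.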

Additional observations from a re-analysis of the deposited data

How the results depend on the processing

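With library totals alone, 3851 transcripts were higher and 1668 lower (1666 lower without overlap), and 7 proteasome, 7 DNA replication, 16 lysosome and 12 actin and adhesion genes fell. Under that scaling 35 respiratory chain, 9 TCA cycle, 17 mitochondrial ribosome, 20 translation factor and 12 nucleotide synthesis genes fell. With each lymphoma left out in turn, changed transcripts ranged from 2724 to 5345, higher ones from 837 to 2363 (836 to 2333 without overlap), proteasome falls from 8 to 16, matrix rises from 3 to 5 and actin and adhesion falls from 13 to 23. With library totals without ribosomal protein transcripts the split was 2709 higher and 2156 lower, and with no filter 1791 and 2774. DESeq2 called 4911, TMM scaling 4907, and a minimum of 10 counts in every library 4405. Fitting the replicate block gave 3992 calls (1633 higher and 2359 lower). Prps2 had a log2 fold change of -3.07 to -2.64 over the alternatives. The deviations of equally numbered libraries from the means of their genotypes correlated at -0.223, -0.119 and 0.0236, and not every library correlated best with its own number, so the numbers were not taken to pair the samples. No alternative that was run reversed the sign of a gene called in it or in the reported fit, and 170 of the 187 genes that the rule names kept their side of the threshold in every alternative. The planned check against coding length was not run, because no table of protein or coding lengths was given. At this depth 3 counts are 0.489 to 0.732 CPM, which limits the folds of genes near that level.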
